A study of Mus musculus with 8 samples.

Results

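The 10 genes followed here make, carry or deposit the histone variant H3.3, and they were measured in mouse embryonic stem cells (ESCs) depleted of Hira, Ubn1 or Ubn2. They were listed by their symbols and not by a rule on measured values, but earlier results of these data were known when the list was made. They are Hira, Ubn1, Ubn2 and Cabin1 (the HIRA complex), Asf1a and Asf1b (chaperones that pass H3-H4 to it), Daxx and Atrx (the other H3.3 deposition complex), and H3f3a and H3f3b (the genes of H3.3 itself), out of 55418 genes in the count tables. All 10 were expressed well enough to be tested in every comparison.

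H3.3 differs from the replication-dependent H3 histones in that it is made and placed into chromatin throughout the cell cycle. The HIRA complex places it at active genes and at sites left without nucleosomes, with HIRA as the scaffold, the ubinuclein proteins UBN1 and UBN2 as the subunits that recognise H3.3, and CABIN1 as an accessory subunit. DAXX, working with the chromatin remodeller ATRX, places H3.3 at telomeres, pericentromeric repeats and endogenous retroviruses. In ESCs, both routes have been linked to the silencing of retrotransposons.

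The cells were E14 ESCs, a mouse line grown here on gelatin in serum with LIF. The 8 libraries were 2 each from a Control, a Hira_KD, an Ubn1_KD and an Ubn2_KD group. Each knockdown group received a pSuper puro plasmid that expresses a short hairpin RNA (shRNA) against the named gene. According to the labels, wild type cells received 1000 ng of the pSuper puro vector, and puromycin at 1 µg/ml was applied from 24 h after transfection for 3 days. The methods name luciferase as the target of the control shRNA. They also give a slightly lower puromycin dose than the labels, and a time window for its start that opens before 24 h. Whether more than a single shRNA was used for each gene in these libraries is not given in the sources used here, so an effect of the hairpin and of its target cannot be told apart. The cells were a transfected and selected population and not a clone. The labels do not say that the replicates came from separate cultures, so every p-value measures only the spread between these libraries.

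The libraries held between 19710040 and 32706053 counts on genes. Of the 8 ESC marker genes, including Pou5f1, Sox2 and Nanog, each was detected in every group, and their summed level was between 5267 and 5458 CPM (gene counts scaled to the same library total) in Control, 4677 and 4901 in Hira_KD, 4949.8 and 5101 in Ubn1_KD, and 4946 and 5077 in Ubn2_KD. Replicates of a group never agreed within sampling noise, so no library was counted as a copy. An exact two-sided permutation test of 2 libraries against 2 cannot give a p below 0.333, so the tests below come from edgeR's quasi-likelihood fit across all genes with Benjamini-Hochberg adjustment. A gene is said to have passed at an adjusted p under 0.05, and to have passed with a fold when it also changed by more than 1.5-fold.

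The 2 H3.3 genes are shown first, because they encode 1 protein by different codons and their reads can therefore be told apart. H3f3a lies at chr1:180800832-180813943 (minus strand) and H3f3b at chr11:116021912-116027962 (minus strand) of GRCm38. The start of each coding sequence, from the GENCODE M21 annotation of that build, is printed with the bases that differ between the genes in capitals.
H3f3a: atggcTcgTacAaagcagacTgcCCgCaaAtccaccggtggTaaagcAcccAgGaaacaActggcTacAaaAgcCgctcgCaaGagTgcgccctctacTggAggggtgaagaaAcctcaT
H3f3b: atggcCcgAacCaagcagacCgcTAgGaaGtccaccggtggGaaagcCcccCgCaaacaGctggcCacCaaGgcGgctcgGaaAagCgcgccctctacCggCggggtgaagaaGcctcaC
Over the whole coding sequence, 95 of 411 bases differed (76.9% identity) and 83 of 137 codons differed in at least 1 base, with 0 differences in the encoded amino acids. The longest exact stretch shared by the 2 coding sequences was 23 bases. H3f3a shared longer exact stretches with its copies, 110 bases with H3f3a-ps1, 155 bases with H3f3a-ps2 and 267 bases with H3f3c. Those copies were counted at 0.153 to 1.56 CPM over the 8 libraries, against 347 CPM or more for H3f3a, and adding the counts of the H3f3a-ps copies to H3f3a changed none of its calls.

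In Control ESCs the H3.3 genes stood far above the genes of their chaperones. Levels are compared between genes as CPM per kilobase of annotated exon. H3f3b was highest at 175 ± 8.72 CPM per kilobase (SD, n = 2) and H3f3a followed at 114 ± 2.36. The chaperones followed at a distance, with Asf1b at 29.6 ± 0.607, Daxx at 20.7 ± 1.60 and Hira at 15.0 ± 0.926. Cabin1 stood at 10.1 ± 0.110, Asf1a at 8.11 ± 0.568, Atrx at 6.16 ± 0.363, Ubn1 at 5.87 ± 0.765 and Ubn2 at 2.37 ± 0.0522. The values of Atrx and Ubn1 overlapped between the 2 Control libraries, and the other neighbours in this order did not overlap. Dividing by the longest annotated transcript instead gave the same order. The scaffold Hira was thus more abundant per kilobase than the H3.3-binding subunits Ubn1 and Ubn2 in both Control libraries, and Asf1b more abundant than Asf1a.

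**Figure D1:**
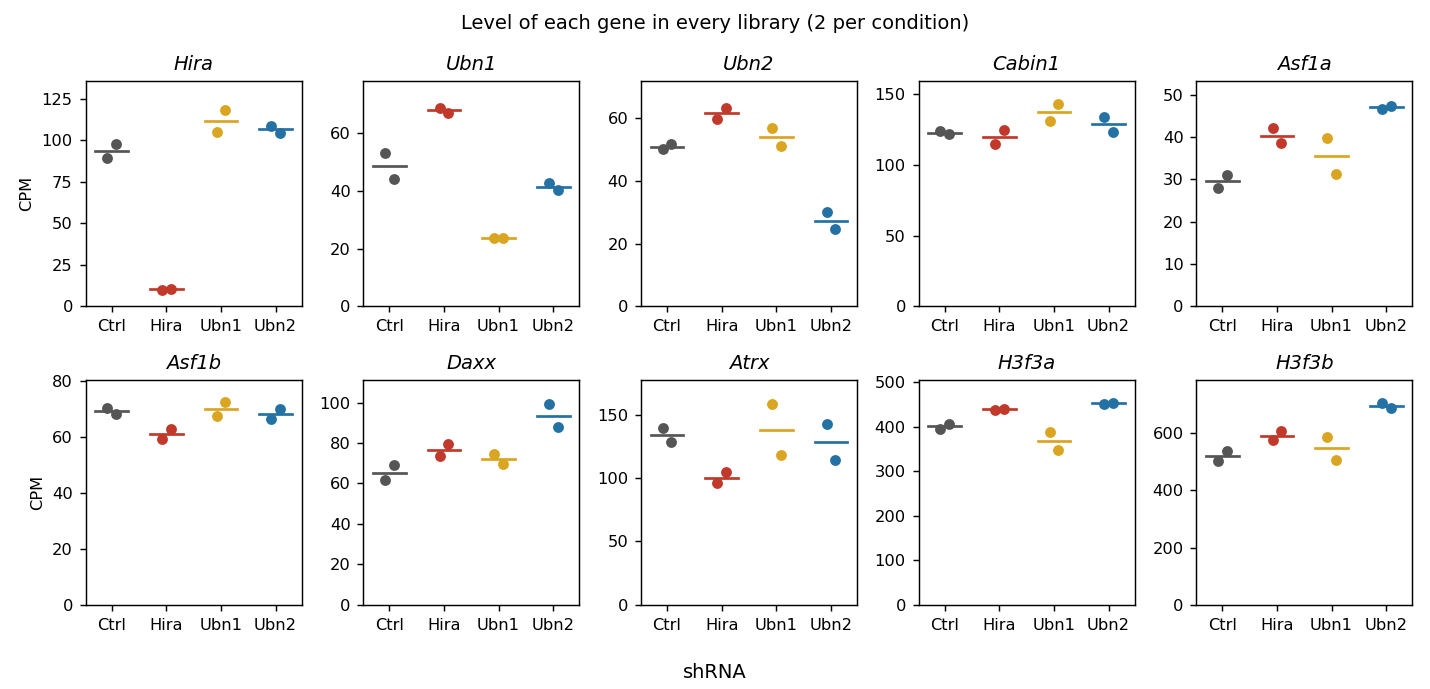
Level of each of the 10 genes in CPM (vertical axes from 0) in the 8 libraries, by the shRNA received. Points are libraries and lines are the means of 2. Each targeted gene is lowest under its own shRNA, and Asf1a, Daxx and H3f3b are highest under the Ubn2 shRNA.

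The targeted genes were examined first, as a check of the labels. Hira (chr16:18877037-18970309, plus strand) was at 89.4 and 97.6 CPM in Control and at 10.0 and 10.4 CPM in Hira_KD. Both depleted libraries lay far below every other library, at 10.9% of the Control mean. The log2 fold change was -3.22 (SE 0.10, edgeR adjusted p = 5.57e-15). In these bulk samples, fewer cells with a transcript and less of it per cell cannot be told apart.

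Ubn1 (chr16:5050057-5086289, plus strand) was at 53.0 and 44.1 CPM in Control and at 23.8 CPM in both Ubn1_KD libraries. The depleted level was 49.0% of Control, without overlap (log2 fold change -1.03, SE 0.12, edgeR adjusted p = 4.02e-07). Ubn2 (chr6:38433950-38524825, plus strand) was at 50.1 and 51.7 CPM in Control and at 30.1 and 24.6 CPM in Ubn2_KD. That was 53.7% of Control, again without overlap (log2 fold change -0.90, SE 0.10, edgeR adjusted p = 7.2e-07). The 3 depletions were therefore unequal in depth, with far more of the targeted transcript left after Ubn1 or Ubn2 depletion than after Hira depletion. A comparison between depletions carries this difference as well as the identity of the gene.

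Hira shares 2778 bases, 44.7% of its exons, with the readthrough gene Gm28539 on the same strand. Gm28539 was counted at 81.9 and 88.3 CPM in Control and at 12.4 and 13.4 CPM in Hira_KD, a log2 fold change of -2.75. Summing the counts of both genes gave -2.97 for Hira depletion, which still passed. How reads in the shared exons were divided is not given in the sources used here, so the depleted level of Hira is uncertain to that extent.

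Across the 10 genes, Hira depletion raised 3 and lowered 2, Ubn1 depletion lowered 1, and Ubn2 depletion raised 4 and lowered 1. These counts include the targeted gene, whose fall was set by the design. Of the 9 genes not targeted, 3 rose and 1 fell after Hira depletion. After Ubn1 depletion 0 of the 9 passed, though 2 had an unadjusted edgeR p under 0.05. After Ubn2 depletion 4 of the 9 rose and 0 fell. The genes passing were Ubn1, Ubn2 and Asf1a (higher) and Hira and Atrx (lower) after Hira depletion, Ubn1 (lower) after Ubn1 depletion, and Hira, Asf1a, Daxx and H3f3b (higher) and Ubn2 (lower) after Ubn2 depletion. Among all genes tested, 17.6% were higher and 17.3% lower after Hira depletion, 4.14% higher and 3.62% lower after Ubn1 depletion, and 20.0% higher and 19.1% lower after Ubn2 depletion. With a fold, 1 of the 10 passed after Hira depletion (Hira), 1 after Ubn1 depletion (Ubn1) and 2 after Ubn2 depletion (Ubn2 and Asf1a), against 16.2%, 3.09% and 18.3% of all genes. The median log2 fold change of the 10 genes was 0.14, 0.08 and 0.12 in that order, beside 0.01, -0.0024 and -0.0041 over all genes tested. Without the targeted gene it was 0.17, 0.08 and 0.17. The 3 comparisons share the Control libraries. Most changes other than those of the targeted genes were thus of modest size, and Asf1a after Ubn2 depletion was the exception that passed 1.5-fold.

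**Figure D2:**
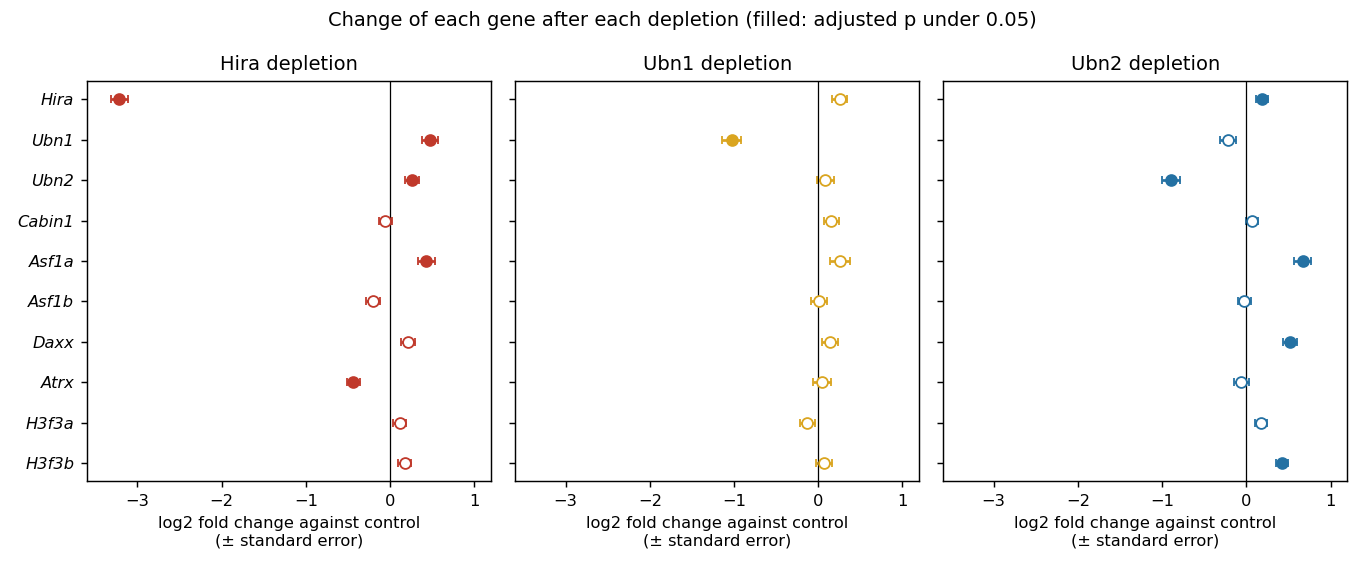
Log2 fold change against Control (horizontal axis, with standard error, 2 libraries against 2) for each of the 10 genes after depletion of Hira, Ubn1 or Ubn2. Filled points passed at an adjusted p under 0.05. Beside the targeted genes, 4 genes are filled after Hira depletion, 0 after Ubn1 depletion and 4 after Ubn2 depletion.

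By quantitative PCR normalized to Gapdh, the authors reported no effect of depleting a HIRA complex member on the RNA of the others, with Asf1a among those measured. In the RNA-seq libraries, Ubn1 rose after Hira depletion. It was at 68.8 and 67.2 CPM in Hira_KD, above both Control libraries and above all other libraries. The log2 fold change was 0.48 (SE 0.093, edgeR adjusted p = 0.000464), and it passed under every alternative, between 0.34 and 0.60. After Ubn2 depletion, Ubn1 was at 42.7 and 40.3 CPM, just below the lower Control library (log2 fold change -0.22, SE 0.098, edgeR adjusted p = 0.0807). The Control libraries themselves differed for this gene (53.0 and 44.1 CPM), and without Control replicate 2 the log2 fold change was -0.35 with an adjusted p of 0.00696. It also passed with no filter on low counts (-0.24, adjusted p = 0.0494). The direct comparison of Hira_KD with Ubn2_KD gave a log2 difference of 0.72 for Ubn1 (SE 0.082, edgeR adjusted p = 1.61e-05), which passed with each library left out.

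Ubn2 was at 59.7 and 63.4 CPM in Hira_KD, above both Control libraries. The log2 fold change of 0.26 (SE 0.085, edgeR adjusted p = 0.0231) did not pass with DESeq2 (adjusted p = 0.0778). It also failed without Control replicate 1 (0.128), without Control replicate 2 (0.0626) and without Hira_KD replicate 2 (0.144). In Ubn1_KD, Ubn2 was at 56.9 and 51.2 CPM, 1 library above Control and 1 between the Control values (log2 fold change 0.08, SE 0.10, edgeR adjusted p = 0.694). The interval from -0.12 to 0.28 still allows a small change of Ubn2 when Ubn1 is depleted.

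The scaffold gene Hira was at 105 and 118 CPM in Ubn1_KD and at 109 and 105 CPM in Ubn2_KD. All 4 of these libraries were above both Control libraries. After Ubn1 depletion the log2 fold change was 0.25 (SE 0.095, edgeR adjusted p = 0.0982), and it passed without Ubn1_KD replicate 1 (0.32, adjusted p = 0.0127). After Ubn2 depletion it was 0.19 (SE 0.072, edgeR adjusted p = 0.0424). This call was lost with DESeq2 (adjusted p = 0.101), with no filter on low counts (0.0963), with all 8 libraries in 1 fit (0.0927) and when the counts of Gm28539 were added (0.0933). Leaving out Control replicate 1 (0.293), Ubn2_KD replicate 1 (0.203) or Ubn2_KD replicate 2 (0.0711) ended it too.

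Cabin1 (chr10:75646112-75764341, minus strand) was the only subunit of the 4 that no shRNA targeted here. It was at 124 and 122 CPM in Control, at 115 and 124 in Hira_KD, at 131 and 144 in Ubn1_KD, and at 134 and 123 in Ubn2_KD. Control lay inside the Hira_KD range, and only the Ubn1_KD libraries were both above Control. The log2 fold changes were -0.06, 0.16 and 0.07 after Hira, Ubn1 and Ubn2 depletion (edgeR adjusted p = 0.602, 0.33 and 0.456).

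UBN1 and UBN2 occupy the same place in the complex, so their transcripts were also summed. Per kilobase, the sum was 8.75 and 7.74 CPM in Control, 11.1 in both Hira_KD libraries, 5.52 and 5.26 in Ubn1_KD, and 6.57 and 6.02 in Ubn2_KD. Neither ubinuclein knockdown overlapped Control, and Hira_KD lay above it. Ubn1 supplied 71.1% of the Control sum, 53.3% after Ubn1 depletion and 79.8% after Ubn2 depletion. As summed counts in 1 row of the fit, an alternative chosen after seeing the data, the pair rose after Hira depletion (log2 fold change 0.37, edgeR adjusted p = 0.000828). The same sum was lower after Ubn1 depletion (-0.36) and after Ubn2 depletion (-0.53). In these 2 depletions the sum holds the targeted gene itself. Its fall and the shift of the Ubn1 share were therefore built into the design, unless the other paralog made up the loss. Between Ubn2_KD and Ubn1_KD the 2 scales ran in opposite directions. Per kilobase the sum was higher in Ubn2_KD, whereas the summed counts, in which the longer Ubn2 weighs more, gave a log2 difference of -0.18 that did not pass (edgeR adjusted p = 0.218).

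**Figure D3:**
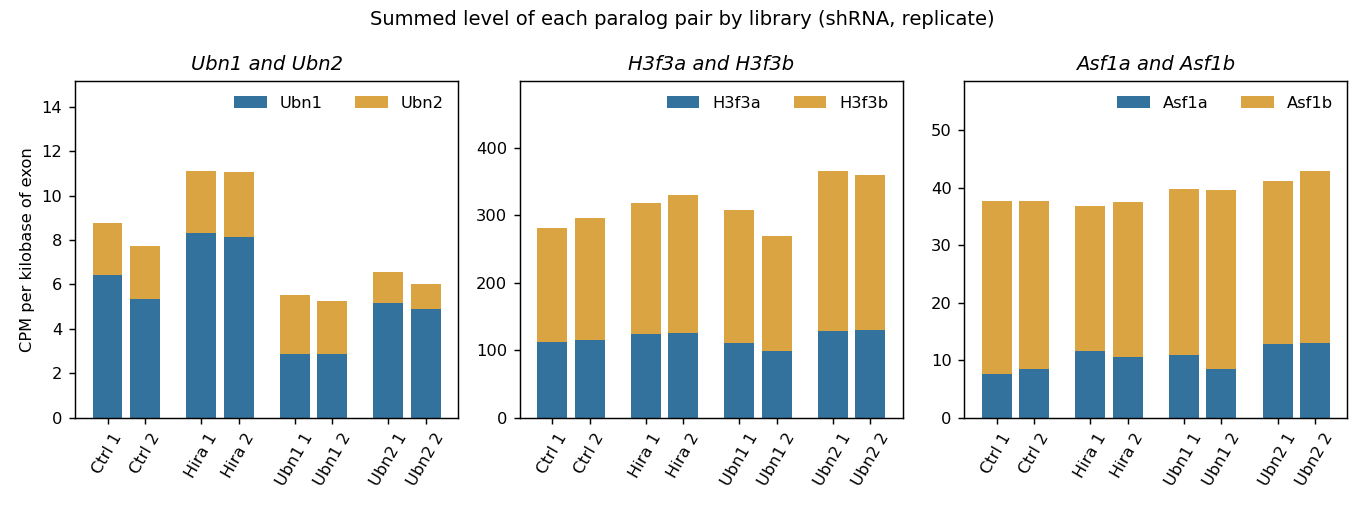
Stacked level of each paralog pair (vertical axes, CPM per kilobase of annotated exon, from 0) in each of the 8 libraries, labelled by shRNA and replicate. The Ubn1 and Ubn2 sum is highest in both Hira_KD libraries, and the H3f3a and H3f3b sum is highest in both Ubn2_KD libraries at 366 and 361.

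Of the ASF1 pair, which hands H3-H4 to the deposition complexes, Asf1a rose after Hira and after Ubn2 depletion, and Asf1b did not pass in the comparisons with Control. Asf1a (chr10:53596757-53609225, plus strand) was at 28.0 and 31.0 CPM in Control, at 42.0 and 38.5 in Hira_KD, at 39.8 and 31.2 in Ubn1_KD, and at 46.6 and 47.4 in Ubn2_KD. All 6 knockdown libraries were above both Control libraries, with Ubn1_KD replicate 2 only just so. The log2 fold change was 0.43 after Hira depletion (SE 0.10, edgeR adjusted p = 0.00245) and 0.67 after Ubn2 depletion (SE 0.096, edgeR adjusted p = 1.24e-05), and both passed under every alternative. After Ubn1 depletion it was 0.26 (SE 0.12, edgeR adjusted p = 0.201), with 0.43 and an adjusted p of 0.018 without Ubn1_KD replicate 2. The difference between Ubn2_KD and Ubn1_KD was 0.41 (SE 0.12, edgeR adjusted p = 0.0233). It was lost with DESeq2 (adjusted p = 0.0535) and without Ubn1_KD replicate 2 (0.161), Ubn2_KD replicate 1 (0.0721) or Ubn2_KD replicate 2 (0.0724). Hira_KD and Ubn2_KD differed by -0.21 (SE 0.089, edgeR adjusted p = 0.0749).

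Asf1a shares 1748 bases, 48.0% of its exons, with Mcm9 on the opposite strand, a gene of a DNA helicase used in repair. Whether strand was used in counting is not given in the sources used here, so reads of the 2 genes may not be separable there. Mcm9 was at 30.5 and 31.2 CPM in Control, 36.2 and 38.9 in Hira_KD, 42.3 and 34.6 in Ubn1_KD, and 42.2 in both Ubn2_KD libraries. It moved the same way as Asf1a, with log2 fold changes of 0.26, 0.31 and 0.45 (edgeR adjusted p = 0.0443, 0.0938 and 0.000737). The part of Mcm9 reads in the rise of Asf1a was not tested.

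Asf1b (chr8:83955507-83970197, plus strand), the paralog associated with dividing cells, was at 70.3 and 68.2 CPM in Control and at 59.1 and 62.9 in Hira_KD. Both Hira_KD libraries were below both Control libraries, with a log2 fold change of -0.20 that did not pass (SE 0.082, edgeR adjusted p = 0.0625). In Ubn1_KD it was at 67.4 and 72.4 CPM and in Ubn2_KD at 66.4 and 69.8 CPM, overlapping Control in both (log2 fold changes 0.01 and -0.02). Asf1a supplied 21.5% of the summed ASF1 transcripts per kilobase in Control, 29.8% in Hira_KD, 24.6% in Ubn1_KD and 30.7% in Ubn2_KD. The summed counts of the pair changed by 0.02 after Hira depletion (edgeR adjusted p = 0.871), by 0.09 after Ubn1 depletion (0.611) and by 0.22 after Ubn2 depletion (0.0137). This fit was chosen after seeing the data, and the sum did not pass in Hira_KD against Ubn2_KD (-0.18, adjusted p = 0.0624).

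In the DAXX-ATRX route, Daxx rose after Ubn2 depletion and Atrx fell after Hira depletion. Daxx (chr17:33909414-33915590, plus strand), the H3.3-binding chaperone, was at 61.8 and 68.9 CPM in Control and at 99.3 and 87.8 in Ubn2_KD. Both Ubn2_KD libraries lay above all 6 others. Its log2 fold change was 0.51 (SE 0.082, edgeR adjusted p = 3.91e-05) and passed under every alternative. Daxx was at 73.7 and 79.7 CPM in Hira_KD and at 74.5 and 69.7 in Ubn1_KD, all above both Control libraries, with log2 fold changes of 0.21 (edgeR adjusted p = 0.0569) and 0.14 (0.445). The former passed without Control replicate 2 (adjusted p = 0.0389) or without Hira_KD replicate 1 (0.039).

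The change of Daxx differed between Ubn2 depletion and each of the others. Hira_KD and Ubn2_KD differed by -0.28 (SE 0.082, edgeR adjusted p = 0.0148), and Ubn2_KD and Ubn1_KD by 0.38 (SE 0.093, edgeR adjusted p = 0.0107). The former was lost without Hira_KD replicate 1 (adjusted p = 0.0505) or without Ubn2_KD replicate 1 (0.183). Leaving out Ubn2_KD replicate 1, the library with the highest Daxx level, also ended the latter (0.28, adjusted p = 0.264).

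Atrx (chrX:105797615-105929403, minus strand), the remodeller of the route, fell after Hira depletion. It was at 139.6 and 128 CPM in Control and at 95.8 and 105 CPM in Hira_KD, where both libraries lay below all 6 others. This gave a log2 fold change of -0.44 (SE 0.079, edgeR adjusted p = 0.000215), which passed under every alternative, between -0.50 and -0.38. Atrx replicates were far apart in Ubn1_KD (158 and 118 CPM) and in Ubn2_KD (143 and 114 CPM), with Control inside both ranges. Their log2 fold changes were 0.04 (edgeR adjusted p = 0.864) and -0.06 (0.613), and the latter was -0.23 with an adjusted p of 0.0475 without Ubn2_KD replicate 1.

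The direct comparisons gave Atrx as lower in Hira_KD than in Ubn2_KD by -0.35 on the log2 scale (SE 0.095, edgeR adjusted p = 0.00915) and than in Ubn1_KD by -0.46 (SE 0.11, edgeR adjusted p = 0.00425). Each rested on the higher library of the other group. Without Ubn2_KD replicate 1 the first was -0.19 (adjusted p = 0.201), and without Ubn1_KD replicate 1 the second was -0.25 (adjusted p = 0.0681).

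The H3.3 genes themselves were examined last among the members. H3f3b was at 501 and 538 CPM in Control, at 576 and 607 in Hira_KD, at 588 and 507 in Ubn1_KD, and at 705 and 688 in Ubn2_KD. The Ubn2_KD libraries lay above all 6 others, and the Ubn1_KD libraries overlapped Control. H3f3b changed by 0.42 on the log2 scale after Ubn2 depletion (SE 0.071, edgeR adjusted p = 7.61e-05), which passed under every alternative. After Hira depletion it was 0.17 (SE 0.074, edgeR adjusted p = 0.0806), with both libraries above Control, and it passed without Hira_KD replicate 1 (0.21, adjusted p = 0.0422). After Ubn1 depletion it was 0.07 (SE 0.095, edgeR adjusted p = 0.709).

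H3f3a was at 395 and 407 CPM in Control, at 437 and 440.1 in Hira_KD, at 387 and 347 in Ubn1_KD, and at 451 and 454 in Ubn2_KD. Hira_KD and Ubn2_KD lay above Control and Ubn1_KD below it, without overlap, yet none passed. Log2 fold changes were 0.11 (SE 0.072, edgeR adjusted p = 0.244), -0.13 (SE 0.093, edgeR adjusted p = 0.441) and 0.17 (SE 0.069, edgeR adjusted p = 0.053) after Hira, Ubn1 and Ubn2 depletion. The last passed with DESeq2 (adjusted p = 0.0203) and with DESeq2's size factors in edgeR (0.0477). H3f3a shares 638 bases, 18.2% of its exons, with the opposite-strand lincRNA Gm17275, which was at 199 and 200.3 CPM in Control and at 220.2 and 242 CPM in Ubn2_KD (log2 fold change 0.21, edgeR adjusted p = 0.0218). The part of these shared reads in the level of H3f3a was not tested.

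Summed per kilobase, the H3.3 transcripts were at 281 and 297 CPM in Control, 318 and 330 in Hira_KD, 308 and 269 in Ubn1_KD, and 366 and 361 in Ubn2_KD. The summed counts passed after Ubn2 depletion (log2 fold change 0.32, edgeR adjusted p = 0.000867) and not after Hira depletion (0.15, adjusted p = 0.132) or Ubn1 depletion (-0.01, adjusted p = 0.964), in a fit chosen after seeing the data. Compared directly, the sum was higher in Ubn2_KD than in Ubn1_KD (0.33, edgeR adjusted p = 0.0341), and Hira_KD against Ubn2_KD gave -0.15 (adjusted p = 0.141). The share of H3f3a in the sum was 39.6% in Control, 38.6% in Hira_KD, 36.3% in Ubn1_KD and 35.6% in Ubn2_KD.

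Between depletions, 6 of the 10 genes passed in Hira_KD against Ubn2_KD, where 35.8% of all genes passed in either direction. They were the targeted Hira and Ubn2, and Ubn1, Daxx, Atrx and H3f3b. H3f3b was lower in Hira_KD by a log2 difference of -0.23 (SE 0.078, edgeR adjusted p = 0.0328), and this call was lost without Hira_KD replicate 1 (adjusted p = 0.126), Ubn2_KD replicate 1 (0.170) or Ubn2_KD replicate 2 (0.0953). In Hira_KD against Ubn1_KD, 3 of the 10 passed (the targeted Hira and Ubn1, and Atrx) beside 24.3% of all genes. In Ubn2_KD against Ubn1_KD, 6 passed (the targeted Ubn1 and Ubn2, and Asf1a, Daxx, H3f3a and H3f3b) beside 16.6% of all genes. In each comparison the targeted genes were made to differ by the design, so the shares of all genes are no measure for them. H3f3a was higher in Ubn2_KD by 0.30 (SE 0.096, edgeR adjusted p = 0.0395) and H3f3b by 0.35 (SE 0.10, edgeR adjusted p = 0.0261). Both calls were lost when Ubn1_KD replicate 2 (adjusted p = 0.107 and 0.0654), Ubn2_KD replicate 1 (0.233 and 0.202) or Ubn2_KD replicate 2 (0.182 and 0.0825) was left out.

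The other histone chaperone and partner genes were counted for comparison, from lists that hold 53 genes, of which 52 were tested and Sp100 was not. After Hira depletion 3 rose and 24 fell, with a median log2 fold change of -0.15 and 2 past 1.5-fold, beside 17.6% higher and 17.3% lower among all genes. After Ubn2 depletion 10 rose and 10 fell, with a median of -0.02 and 1 past 1.5-fold. Those counts are near the 20.0% higher and 19.1% lower among all genes, and are no result about the list. The lists below are small, and their counts after Hira and after Ubn2 depletion are to be read against these same shares. After Ubn1 depletion edgeR passed 0, DESeq2 passed 3, and 10 had an unadjusted edgeR p under 0.05. A gene that passed with a fold in 2 or more depletions was not found (0 of 52).

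**Figure D4:**
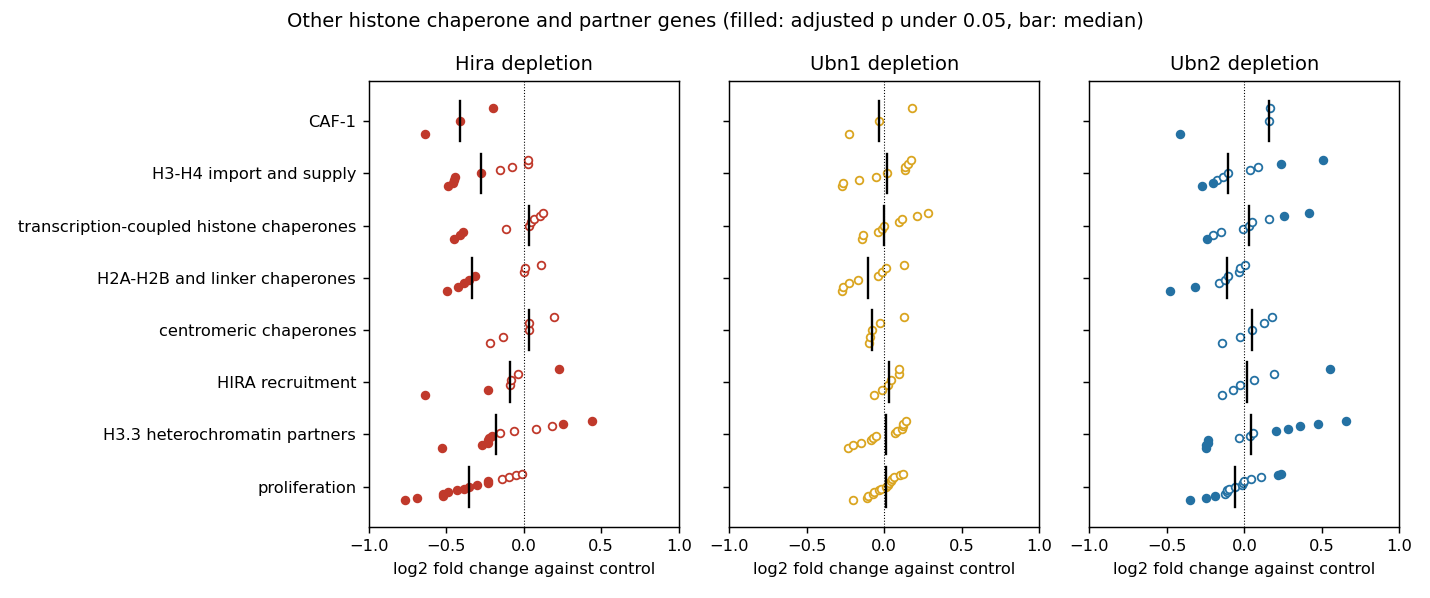
Log2 fold change against Control (horizontal axis) of the other chaperone and partner genes and of the proliferation genes, by list, after each depletion (2 libraries against 2). Each point is a gene, filled where it passed at an adjusted p under 0.05, and bars are list medians. After Hira depletion the CAF-1 and proliferation points lie below 0.

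CAF-1, the chaperone that deposits the replication-dependent H3 histones behind the fork, fell in full after Hira depletion (3 of 3). Chaf1b fell by 0.63 on the log2 scale (edgeR adjusted p = 4.99e-06), Rbbp4 by 0.41 (adjusted p = 0.00017) and Chaf1a by 0.20 (adjusted p = 0.0412). Of the CAF-1 genes, 1 fell after Ubn2 depletion, Chaf1b by 0.42 (adjusted p = 0.000161). The median log2 fold change of the 3 was 0.16 there, and DESeq2 passed 2 of them. Of 9 genes for the import and supply of H3-H4, 5 fell and 0 rose after Hira depletion (all genes, 17.3% lower), among them Mcm2 (-0.49), Nasp (-0.44) and Hat1 (-0.46). After Ubn2 depletion 2 of these rose, the importin gene Ipo4 (0.50) and the co-chaperone gene Dnajc9 (0.23), and 2 fell, among them Nasp (-0.28), near the 20.0% and 19.1% of all genes.

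Of the 9 transcription-coupled chaperone genes, 3 fell after Hira depletion (all genes, 17.3% lower), both FACT subunits Ssrp1 (-0.45) and Supt16 (-0.41) and the remodeller Chd2 (-0.39). After Ubn2 depletion the elongation factor gene Supt6 (0.41) and Chd2 (0.26) rose and Supt16 fell (-0.25). Chd2 therefore passed in opposite directions after the 2 depletions. Of 8 H2A-H2B and linker histone chaperone genes, 5 fell after Hira depletion, including the nucleolar genes Npm1 (-0.50), Npm3 (-0.42) and Ncl (-0.39), and 2 after Ubn2 depletion, Npm3 (-0.48) and Npm1 (-0.32), beside 17.3% and 19.1% of all genes. Of the 5 centromeric chaperone genes, edgeR passed 0 after each depletion, DESeq2 also passed 0, and an unadjusted edgeR p under 0.05 was found for 2 after Hira, 0 after Ubn1 and 1 after Ubn2 depletion.

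Of 6 tested genes linked to the recruitment of HIRA, 1 rose and 2 fell after Hira depletion (all genes, 17.6% higher and 17.3% lower). Rpa1, a subunit of the single-stranded DNA-binding complex, fell by 0.64 (edgeR adjusted p = 1.77e-06). The genes of its other subunits, Rpa2 and Rpa3, did not pass. The ribosomal gene transcription factor Ubtf fell too (-0.23). Pml, the scaffold of PML nuclear bodies, rose after Hira depletion (0.23, adjusted p = 0.0257) and after Ubn2 depletion (0.55, adjusted p = 3.98e-06). Of 12 partners of H3.3 in heterochromatin, 2 rose and 6 fell after Hira depletion (all genes, 17.6% higher and 17.3% lower), among them the H3K9 methyltransferase gene Suv39h2 (0.44), the corepressor gene Trim28 (-0.53) and the HP1 gene Cbx3 (-0.27). After Ubn2 depletion 5 rose and 4 fell (all genes, 20.0% and 19.1%), with Atf7ip (0.65), whose product stabilises the methyltransferase SETDB1, Smarcad1 (0.47) and Setdb1 (0.28) among those that rose. Pml and Daxx, whose proteins meet in the same nuclear bodies, both rose after Ubn2 depletion. Pml was the only 1 of the 6 recruitment genes that rose there, beside 20.0% of all genes higher, and a link between the 2 rises was not tested.

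Several of the genes that fell after Hira depletion serve DNA replication or growth, so a list of 15 proliferation genes was set beside them. Of these, 11 fell and 0 rose after Hira depletion (median -0.35), beside 17.3% of all genes lower. After Ubn2 depletion 2 rose and 3 fell, beside 20.0% and 19.1% of all genes. After Ubn1 depletion edgeR and DESeq2 both passed 0, and 1 had an unadjusted edgeR p under 0.05. Their summed level was 6019 to 6065 CPM in Control, 4455 to 4769 in Hira_KD, 5895 to 6114 in Ubn1_KD and 5729 to 5771 in Ubn2_KD. The lower Asf1b and Atrx levels and the fall of the CAF-1 genes went with this lower proliferation signal in Hira_KD, and its part in them was not tested.

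Of the 8 ESC markers, 1 rose and 3 fell after Hira depletion, beside 17.6% and 17.3% of all genes. After Ubn1 depletion 0 rose and 1 fell, beside 4.14% and 3.62%. After Ubn2 depletion 2 rose and 2 fell, beside 20.0% and 19.1%, with 1 past 1.5-fold. Markers of other cell types also moved. The 6 heart muscle markers summed to 12.7 to 12.8 CPM in Control, with Csrp3 at 0, and to 122 to 200.1 CPM in Ubn2_KD. In Hira_KD they summed to 9.50 to 10.0 CPM and in Ubn1_KD to 8.57 to 12.9. All 6 were tested after Ubn2 depletion, against 3 after Hira and 2 after Ubn1 depletion. Some therefore entered the test only through their level in Ubn2_KD, so a count of rises is no result about them. The summed level of 6 two-cell-like markers was 2.95 to 5.74 CPM in Control, 15.7 to 21.8 in Hira_KD, 12.1 to 12.8 in Ubn1_KD and 20.0 to 29.4 in Ubn2_KD. Of 6 trophoblast markers, 5 were tested after Hira depletion, against 3 after Ubn1 and 4 after Ubn2 depletion. Some can have entered the test through their level in Hira_KD, so edgeR rises among them are not counted. DESeq2 passed 1 of the 5 markers. Their sum was 35.1 to 37.5 CPM in Control, 39.5 to 48.7 in Hira_KD, 37.0 to 38.2 in Ubn1_KD and 39.4 to 41.5 in Ubn2_KD. Fibroblast markers summed to 39.4 to 43.1 CPM in Control, with Col3a1 and Dcn at 0, and to 30.8 to 34.0 CPM in Ubn2_KD. In Hira_KD they summed to 39.4 to 44.2 CPM and in Ubn1_KD to 35.1 to 45.4. After Ubn2 depletion 2 of 5 tested fell, beside 19.1% of all genes. Only 3 were tested after Hira or Ubn1 depletion, so rises in Ubn2_KD are not counted, for the same reason. Primitive endoderm markers summed to 14.1 to 16.7 CPM in Control, 15.0 to 15.8 in Hira_KD, 8.66 to 9.87 in Ubn1_KD and 13.2 to 15.8 in Ubn2_KD. After Ubn1 depletion 2 of 5 tested fell with edgeR, beside 3.62% of all genes, and DESeq2 passed 0. The rises of Asf1a, Daxx and H3f3b in Ubn2_KD and of Ubn1 in Hira_KD went with these shifts, and the part of cell identity in them was not tested.

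Likeness of pattern was described by the Pearson correlation of log2 CPM over the 8 libraries, among 10355 genes averaging at least 10 CPM. Since 8 libraries in 4 groups share their normalization and their group means, these values are a description only. The patterns of Hira, Ubn1 and Ubn2 also hold the drop of each under its own shRNA. Hira was most like Prelid3b (0.997) and Agk (0.993), and Ubn2 most like Fam117b (0.989) and Pttg1 (0.986). The other complex subunits were most like Clic4 (0.975) and Cry1 (0.962) for Ubn1, and Ewsr1 (0.971) and Gm15725 (0.970) for Cabin1. For the ASF1 genes they were Socs2 (0.978) and Mfsd1 (0.972) with Asf1a, and Sec13 (0.984) and Wdr24 (0.977) with Asf1b. Daxx was most like Miga2 (0.985) and Slc37a1 (0.983), and Atrx most like Ireb2 (0.971) and Zc3h13 (0.960). H3f3a was most like Ei24 (0.971) and Tmsb4x (0.964), and H3f3b most like Exosc1 (0.980) and Rbl2 (0.980).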

How the data were processed

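RNA-seq was performed on 8 libraries of E14 ESCs. The authors trimmed the reads with Trim Galore, aligned them to GRCm38 with STAR and deposited featureCounts gene counts without normalization. Versions, strandedness and the treatment of reads on overlapping genes are not given in the sources used here. The 3 deposited tables each hold a knockdown and the Control, whose values were identical between tables. Counts were tested with edgeR 4.0.16 (quasi-likelihood, TMM, filterByExpr) in R 4.3.3 on the 4 libraries of each comparison, with Benjamini-Hochberg adjustment over all genes tested. CPM used TMM factors over all 8 libraries. Exon lengths and positions came from GENCODE M21, and intervals of log2 changes are 95% normal intervals. DESeq2 1.42.0, other size factors, no filter, all 8 libraries, a replicate block and each library left out were alternatives. From each chaperone list and depletion, the text names at most 3 genes that passed, taken in order of adjusted p, and likeness named the 2 highest correlations. Overlapping genes and copies of members were named by annotation. The fits were tested on counts simulated from Hira_KD and Control, with known changes. The main fit passed 72.2% of genes changed by 0.5 on the log2 scale and 96.7% of those changed by 1. DESeq2 passed 62.0% and 93.5%. Smaller changes and the other depletions were not simulated, so a small change that did not pass may have been missed. The 10 members and all gene lists were chosen with earlier results of these data known.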

Additional observations from a re-analysis of the deposited data

Results flagged for a closer look

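For 9 values, a test of the difference between depletions passed for a gene targeted in neither of the groups compared. Between Hira_KD and Ubn2_KD these were the log2 differences of Ubn1 (0.72), Daxx (-0.28), Atrx (-0.35) and H3f3b (-0.23). Between Hira_KD and Ubn1_KD it was that of Atrx (-0.46). Between Ubn2_KD and Ubn1_KD they were those of Asf1a (0.41), Daxx (0.38), H3f3a (0.30) and H3f3b (0.35). Ubn1 in Hira_KD against Ubn2_KD was the only value of the 9 that kept an adjusted p under 0.05 with every library left out in turn.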

How the results depend on the processing

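The fall of each targeted gene, the rises of Ubn1 and Asf1a and the fall of Atrx after Hira depletion, and the rises of Asf1a, Daxx and H3f3b after Ubn2 depletion passed under every alternative run. The replicate block, with the replicate number in the labels as a term, raised the members passing from 5 to 8 after Hira depletion and from 1 to 2 after Ubn1 depletion. Those added were Daxx (adjusted p = 0.0141), H3f3b (0.0173) and Asf1b (0.0273) after Hira depletion and Hira (0.0327) after Ubn1 depletion. The block ended the call of H3f3b in Hira_KD against Ubn2_KD (0.100). The numbers are not stated to pair libraries, and deviations of same-numbered libraries correlated between -0.067 and 0.065. For the other chaperone genes after Ubn1 depletion, the count of 0 became 3 with DESeq2, 4 with no filter, 5 with the replicate block and 2 with all 8 libraries in 1 fit. Leaving out each library gave 0 to 12 there, with 12 without Ubn1_KD replicate 1 and 2 without Ubn1_KD replicate 2. Members passing ranged from 1 to 2 after Ubn1 depletion, 3 to 6 in Hira_KD against Ubn2_KD, 3 to 5 in Hira_KD against Ubn1_KD and 2 to 6 in Ubn2_KD against Ubn1_KD. The 2 after Ubn1 depletion came without either Ubn1_KD library, the 3 against Ubn2_KD without Ubn2_KD replicate 1, the 5 without Ubn1_KD replicate 1, and 2 and 3 of the last without Ubn2_KD replicates 1 and 2. Some small log2 changes that never passed, or passed with 1 library left out, turned sign with a library left out. After Ubn1 depletion these ranged, over the libraries left out, from -0.0049 to 0.158 for Ubn2, -0.041 to 0.054 for Asf1b, -0.193 to 0.241 for Atrx and -0.046 to 0.175 for H3f3b. After Ubn2 depletion they ranged from -0.060 to 0.015 for Asf1b and -0.23 to 0.096 for Atrx. Between Ubn2_KD and Ubn1_KD they ranged from -0.148 to 0.015 for Hira, -0.092 to 0.011 for Asf1b and -0.305 to 0.121 for Atrx. The cause was not tested. An arm left with 1 library was assumed to vary like the other. With 2 libraries a group, changes of the size seen for most members rest on few degrees of freedom.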
